A study of Mus musculus with 4 samples.

Results

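The Ifitm gene cluster lies on mouse chromosome 7, and its loci were taken as every row of the deposited expression table with a gene entry whose interval overlaps chr7:148132000-148215000 of the mm9 build. This gave 5 loci of the 17576 in the table, 15883 of which carry a gene entry. The series holds 4 polyA RNA libraries. Their source is mouse embryonic fibroblasts (MEFs), primary cells grown from embryos of the C57BL/6 strain. In all groups the cells carry the H3.3-HA knock-in, in which a cDNA for the histone variant H3.3 with an HA tag stands in place of H3f3b. The groups compared here are naive cells and pretreated cells, each given interferon-beta (100 U/ml) for 1 h, with 1 library per group. The labels state neither the agent and length of the pretreatment nor the number of embryos behind a library. The libraries at 0 h were not analysed here, so induction within 1 h of interferon is outside the comparison. Because each group has 1 library, replicate error is unknown throughout and no test across samples could be run. The samples are bulk RNA, so more RNA per cell and more cells that express a gene cannot be told apart.

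Ifitm proteins are small membrane proteins that limit the entry of enveloped viruses into cells. Type I interferons such as interferon-beta act through a receptor, JAK kinases and the ISGF3 transcription factor complex, which binds interferon-stimulated response elements near the promoters of its targets. Ifitm3 acts mainly in endosomes and Ifitm1 mainly at the cell surface, and Ifitm2 is a close relative of Ifitm3. Ifitm5, also called Bril, belongs to the same family but is known as a protein of bone-forming osteoblasts.

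The table gives UCSC transcript IDs and no symbols, so the loci were identified by their lengths and spacing. The 5 loci occupy 4 intervals, whose 8 ends were laid at each of 131514 transcript starts of the GRCm38 annotation. The best place was on chromosome 7, where every end fell within 123 bases of a transcript end of the same kind; the next best place was off by up to 369 bases. There, XLOC_024028 was laid at a start of Pgghg and ended at an annotated Pgghg end, 0 bases off. XLOC_025314 coincided with Ifitm5 within 52 bases and XLOC_025316 with Ifitm6 within 123 bases. The remaining interval, 55938 bases long, began 2 bases from an end of Ifitm2, ended 2 bases from an end of Ifitm3, and held Ifitm1 and the processed pseudogene Gm7514 between them. Both XLOC_025315 and XLOC_024029 were given this interval. They were told apart by strand, read from the locus numbers. On 20 of 21 chromosomes the numbers ran along the chromosome in 3 successive series. Of 1645 loci with the length and spacing of an annotated transcript, 99.6% were on the strand that this reading gives, plus for the first series and minus for the second. XLOC_025315 belongs to the second, minus-strand series, and the minus-strand Ifitm genes at the ends of its interval are Ifitm2 and Ifitm3. Gm7514 is on the minus strand too, and the table does not show whether reads from it are in this row. XLOC_024029 belongs to the first, plus-strand series, and Ifitm1 is the plus-strand gene of that interval. These names are a reading of lengths, spacing and strand, not entries of the table. In particular, 1 row with 2 transcript IDs stands for Ifitm2 and Ifitm3 together, and their separate levels are not given.

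The sequences before Ifitm2, Ifitm3 and Ifitm1 are shown because the loci read as these genes held the higher values in pretreated cells. They are RefSeq promoter windows of GRCm38.p6, matched by symbol for 5 of 5 Ifitm genes of the region, and are cut before the first annotated exon base. Capitals mark the core of an interferon-stimulated response element, GAAANNGAAA, searched on both strands. The Ifitm2 stretch is chr7:140955988-140956211 on the minus strand, the Ifitm3 stretch is chr7:141010771-141010994 on the minus strand, and the Ifitm1 stretch is chr7:140967826-140968027 on the plus strand.
Ifitm2 upstream: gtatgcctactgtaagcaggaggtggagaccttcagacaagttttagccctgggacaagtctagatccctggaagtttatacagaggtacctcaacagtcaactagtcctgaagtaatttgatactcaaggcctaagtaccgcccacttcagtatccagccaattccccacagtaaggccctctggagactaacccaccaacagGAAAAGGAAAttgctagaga
Ifitm3 upstream: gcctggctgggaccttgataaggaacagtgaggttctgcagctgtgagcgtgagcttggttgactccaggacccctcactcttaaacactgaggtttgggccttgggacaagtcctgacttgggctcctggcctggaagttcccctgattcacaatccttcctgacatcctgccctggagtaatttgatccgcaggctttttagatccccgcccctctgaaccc
Ifitm3 motif pair: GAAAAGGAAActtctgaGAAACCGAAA
Ifitm1 upstream: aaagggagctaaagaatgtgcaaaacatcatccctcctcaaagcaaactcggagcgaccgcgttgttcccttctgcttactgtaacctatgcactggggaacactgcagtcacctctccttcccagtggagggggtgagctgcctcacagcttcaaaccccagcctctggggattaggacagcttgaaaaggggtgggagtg

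Ifitm2 held 1 match, from position -46 to position -37 relative to the RefSeq start site. Ifitm3 held 2 matches, from position 3 to 12 and from position 20 to 29, in its first annotated exon at chr7:141010716-141010742 on the minus strand. The first Ifitm3 match and the Ifitm2 match have the same letters, GAAAAGGAAA. The windows of 300 bases at Ifitm1, Ifitm5 and Ifitm6 held none, which says only that these letters are not in them. Of 32851 promoter windows of this length, 3.44% held the core at least once and 0.225% held it 2 or more times. The core of the gamma-activated sequence, TTCNNNGAA, occurred at Ifitm3 from position 14 to 22, where it overlaps the second response element, and at Ifitm6 from position -10 to -2; 8.30% of windows held it. A match describes the letters and does not show that a factor binds there.

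The locus of Ifitm2 and Ifitm3 carried most of the RNA of the cluster and was higher in pretreated cells. XLOC_025315 (transcripts uc009kiz.1 and uc009kjc.1, chr7:148140734-148196671) had 3987 FPKM in naive cells and 12796 FPKM in pretreated cells. FPKM scales the fragments of a locus by transcript length and library size, so levels can be set side by side between genes if reads cover whole transcripts. The labels name both RNA-seq and scTSS-seq, and if reads came from start sites only, ranks and levels between genes would not be comparable in this way. The pretreated level was 3.21 times the naive level, a change of 1.68 in log2(FPKM + 1). In the authors' deposited table this locus has a p-value of 0.000556 and a q-value of 0.00854 and is called significant. That test compares the reads of these libraries, not replicate cultures. The 24 loci of status FAIL or HIDATA were left out of the ranks and sums that follow. Among 15829 loci of at least 300 bases with a gene entry, XLOC_025315 ranked 35th in the naive library and 7th in the pretreated library. It held 0.502% of the summed FPKM of those loci in naive cells and 1.54% in pretreated cells. The summed level of this row was thus among the highest of the ranked loci in naive cells at 1 h and ranked higher still in pretreated cells. Either gene could carry most of it.

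The locus read as Ifitm1, on the opposite strand of the same interval, moved in the same direction at a far lower level. XLOC_024029 (transcripts uc009kja.2 and uc009kjb.2) had 31.3 FPKM in naive cells and 58.1 FPKM in pretreated cells. The ratio was 1.86, and the change in log2(FPKM + 1) was 0.87, short of 2-fold. The authors' deposited table gives it a p-value of 0.00379 and a q-value of 0.0305, a significant call. The level of XLOC_024029 was 0.785% of that of XLOC_025315 in naive cells and 0.454% in pretreated cells, so the distance between them was wider after pretreatment. Loci that share an interval were divided by the authors' processing, and 23.2% of loci with a gene entry share theirs in this way. Whether the counting used strand is not given in the sources used here. If it did not, reads of the abundant locus and of its overlapping partner could not be fully told apart.

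The other family members of the region were near 2 FPKM in both libraries. XLOC_025314, at the position of Ifitm5 (transcript uc009kiy.1, chr7:148134861-148136138), had 2.21 FPKM in naive against 1.57 FPKM in pretreated cells. XLOC_025316, at the position of Ifitm6 (transcript uc009kjd.1, chr7:148201619-148203334), had 2.59 FPKM in naive against 1.37 FPKM in pretreated cells. Both values were lower in the pretreated library, with changes in log2(FPKM + 1) of -0.32 for Ifitm5 and -0.60 for Ifitm6. The authors' deposited table calls neither, with q-values of 0.640 for Ifitm5 and 0.321 for Ifitm6. Of 3507 loci with a gene entry within 2-fold of the mean level of Ifitm6, the authors called 14.4%, and the median absolute log2 ratio of those called was 1.18. For Ifitm5 there were 3385 such loci, with 14.3% called and a median of 1.19. The log2 ratios of FPKM at Ifitm5, -0.49, and at Ifitm6, -0.92, were smaller in size than these medians. A median of called loci is no threshold for a call, so this does not show why neither locus was called.

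Pgghg was taken in because the region's left edge lies within it: 1558 of its 6078 bases are inside and 4520 are outside. It codes for a glucosidase that acts on the sugars of collagen hydroxylysine and is no member of the Ifitm family. XLOC_024028 (3 transcript IDs, the first uc009kiw.1, chr7:148127480-148133557) had 1.69 FPKM in naive against 2.25 FPKM in pretreated cells. The change in log2(FPKM + 1) was 0.27, and the q-value in the authors' deposited table was 0.455, not called. A locus without a gene entry, XLOC_025447 at chr7:148136323-148138183 between Ifitm5 and the large interval, is outside the rule. It had 3.92 FPKM in naive against 2.51 FPKM in pretreated cells, with a q-value of 0.321 in the authors' deposited table.

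**Figure D1:**
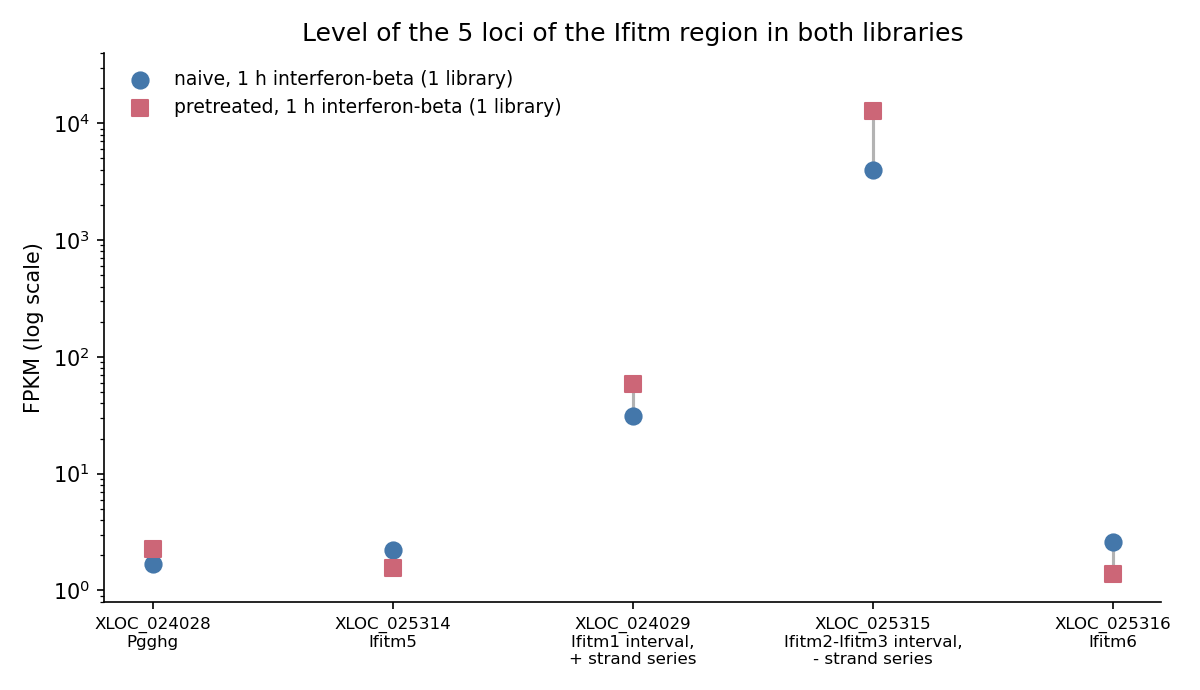
FPKM (log axis) of the 5 loci in chromosome order, with a circle for the naive library, a square for the pretreated library and a line joining them. XLOC_025315 goes from 3987 to 12796 FPKM and XLOC_024029 from 31.3 to 58.1 FPKM, while the other 3 loci stay between 1.37 and 2.59 FPKM in both libraries.

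In order of naive level, the loci ran from the Ifitm2 and Ifitm3 locus through Ifitm1, Ifitm6 and Ifitm5 to Pgghg. In pretreated cells the order of the first 2 was the same, followed by Pgghg, Ifitm5 and Ifitm6. The lowest 3 differed from each other by at most 0.895 FPKM in naive cells and by at most 0.876 FPKM in pretreated cells, and without replicates their order cannot be told from measurement error. All 5 passed the minimum mean of 1 FPKM. Of these, 1 was at least 2-fold higher in pretreated cells, where 2.83% of the 10228 loci compared were, and 0 were at least 2-fold lower, where 7.12% were. Among the 9227 compared loci with a gene entry, from which the 5 were drawn, the shares were 2.41% higher and 4.24% lower. In the authors' deposited table, 2 of the 5 were called higher against 3.91% of 13388 tested loci, and 0 were called lower against 11.9%. Among the 11721 tested loci with a gene entry, 3.92% were called higher and 10.8% lower. The median change of the 5 loci was 0.27 in log2(FPKM + 1), and that of all compared loci was -0.16. The value of 0.27 is that of Pgghg, which is not an Ifitm gene. The Ifitm loci lay on both sides of it, at 1.68 and 0.87 above and at -0.32 and -0.60 below. The median of the compared loci with a gene entry was -0.13; measured from there, XLOC_024029 changed by 1.01 and passed 2-fold as well.

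The change at XLOC_025315 was larger than that of most loci of similar mean level. A set of 696 loci had a gene entry, at least 300 bases and a mean of at least 100 FPKM. Of these, 5.60% were at least 2-fold higher in pretreated cells. Among the 38 of them with a mean of at least 4000 FPKM the share was near that, at 5.26%, or 2 loci. They were XLOC_025315 and XLOC_014516 on chromosome 2, the latter named here after its values were seen. XLOC_025315 had 3987 FPKM in naive cells, and XLOC_014516 went from 1223 to 16010 FPKM. Both were below 4000 FPKM in naive cells, so they are in the set of 38 only through their pretreated values. The mean of both libraries also sets the groups of similar level below, so those comparisons are a description only. Of 36 loci within 2-fold of the mean level of XLOC_025315, 97.2% had a smaller change than this locus. The central range of those changes, from the 10th to the 90th percentile, was -0.34 to 0.48. The Ifitm1 locus stood above 95.1% of 1353 loci of similar level. Ifitm6 stood above 13.1% of 3507 such loci, Ifitm5 above 32.8% of 3385, and Pgghg above 82.8% of 3491.

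**Figure D2:**
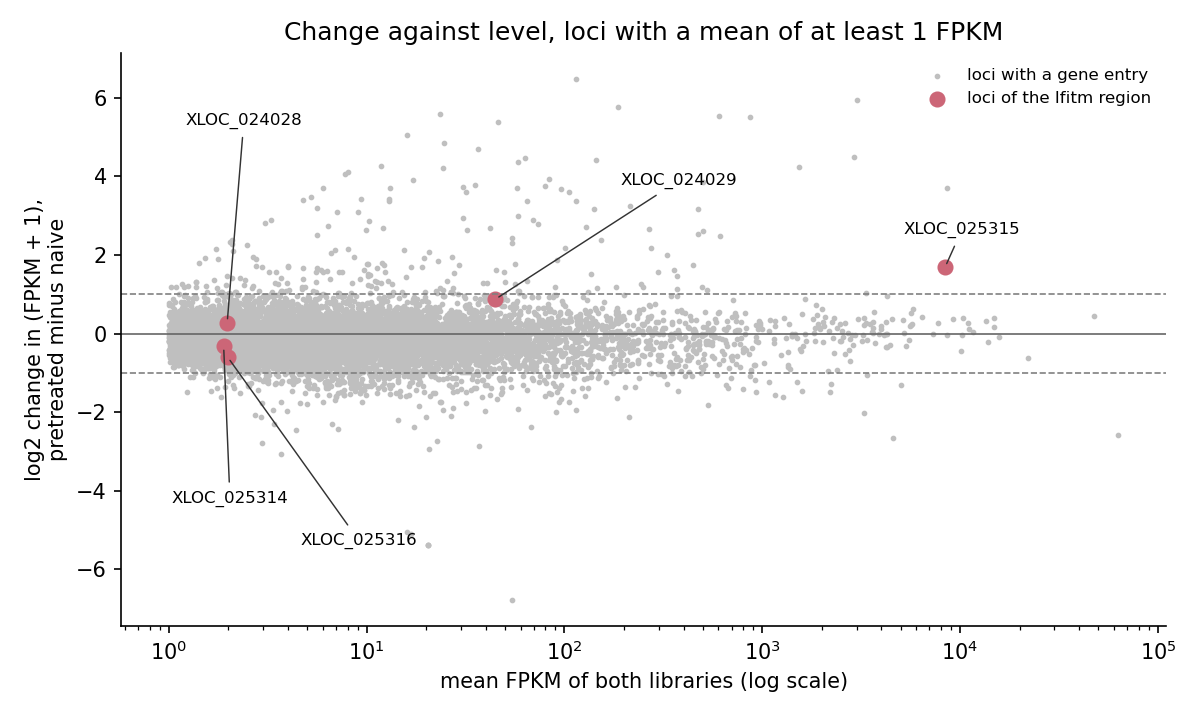
Change in log2(FPKM + 1), pretreated minus naive, against the mean FPKM of both libraries (log axis) for loci with a gene entry and a mean of at least 1 FPKM; dashed lines mark 2-fold. XLOC_025315 lies at the abundant end with a change of 1.68, XLOC_024029 lies just under the upper dashed line at 0.87, and the other 3 loci of the region lie within the main cloud.

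The nearest neighbours of the cluster with a mean of at least 1 FPKM differed by less than 2-fold between the libraries. On the left, the nearest locus, at the position of BC024386, is listed at 0 for the naive and at 0.120 FPKM for the pretreated library. Next came XLOC_024025 at the position of Psmd13, a subunit of the proteasome lid, with 105.9 FPKM in naive against 96.4 FPKM in pretreated cells. The third place is shared by 2 loci of the same interval, XLOC_024024 with 2.61 and 2.95 FPKM and XLOC_025312 with 5.24 and 6.25 FPKM in naive and pretreated cells. On the right, the locus at the position of Pkp3, a desmosome protein, is listed at 0.0452 FPKM for the naive and at 0 for the pretreated library. The locus at the position of Sigirr, an inhibitory receptor of the interleukin-1 receptor family, had 0.176 and 0.159 FPKM. XLOC_024032 had 2.24 FPKM in naive against 1.72 FPKM in pretreated cells. None of these 7 loci was past 2-fold. The authors' deposited table calls none of the 4 that it tested; the loci at BC024386, Pkp3 and Sigirr were left untested.

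Within 1 Mb on each side of the region, 32 further loci with a gene entry had a mean of at least 1 FPKM, and their median change in log2(FPKM + 1) was 0.15. Of these, 1 was at least 2-fold higher and 0 were at least 2-fold lower. Among the 9227 compared loci with a gene entry, the shares were 2.41% higher and 4.24% lower. The higher one was XLOC_025323, 234 kb to the right at the position of Irf7, an interferon-induced transcription factor of the same pathway. It went from 13.2 to 179 FPKM, a change of 3.66, more than that of any locus of the Ifitm region. The authors' deposited table also calls XLOC_025311, 89.3 kb to the left at the position of Bet1l, a Golgi trafficking protein, which went from 7.22 to 13.1 FPKM. In all, 2 of the 32 loci were called higher and 0 lower. Among the 11721 tested loci with a gene entry, 3.92% were called higher and 10.8% lower. XLOC_025323 and XLOC_025311 are named here after their values were seen.

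**Figure D3:**
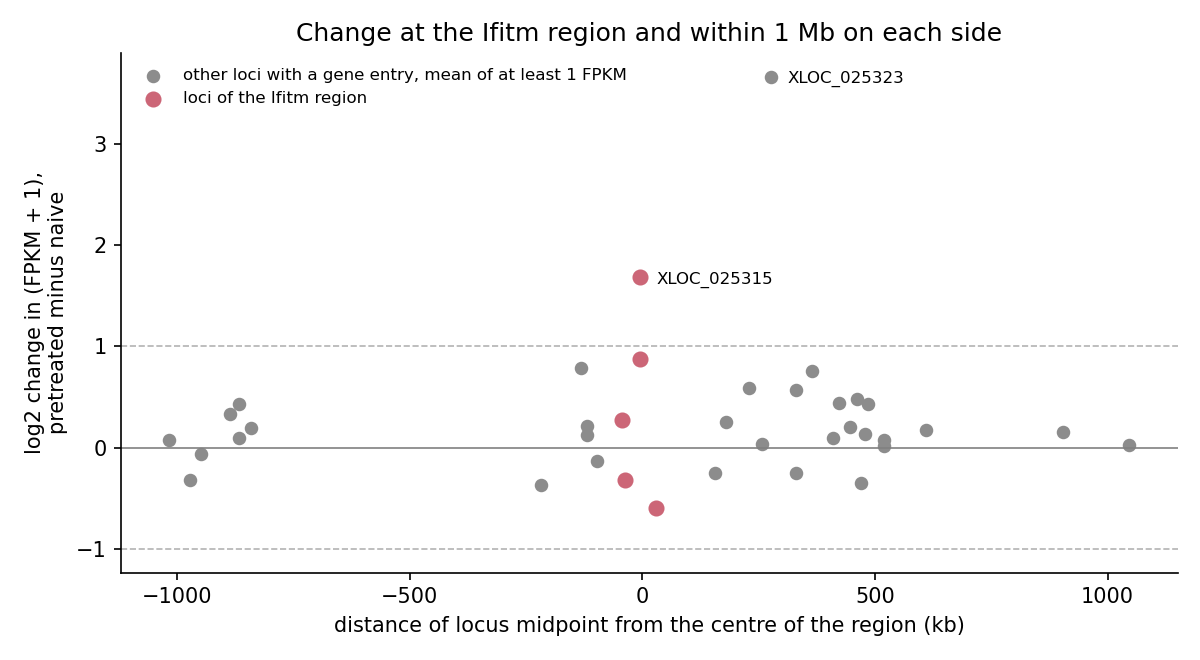
Change in log2(FPKM + 1), pretreated minus naive, of loci with a gene entry by the distance of their midpoint from the centre of the region; dashed lines mark 2-fold. XLOC_025315 at 1.68 and XLOC_025323 at 3.66 are the points above the upper line, and most of the 32 other loci lie close to 0.

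Loci like XLOC_025315 in both libraries were sought by the distance between pairs of log2(FPKM + 1) values, over 2 libraries only. The nearest 3 were XLOC_026402 on chromosome 8 at a distance of 0.89, XLOC_023045 on chromosome 7 at 0.92 and XLOC_017155 on chromosome 3 at 0.97. They were as abundant, at 4538, 5511 and 4605 FPKM in naive cells, but their pretreated levels of 6981, 7400 and 6655 FPKM were 1.54, 1.34 and 1.45 times the naive ones. These loci were picked by the same values, so their differences from the Ifitm2 and Ifitm3 locus only restate the distances.

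Ifitm transcripts share stretches of sequence with each other and with pseudogenes, which bears on how reads are assigned. In the GRCm38 transcripts, 32.7% of the 36-base stretches of Ifitm2 also occur in a transcript of another gene, compared with 17.0% for Ifitm3 and 14.0% for Ifitm1. For stretches of 75 bases the shares were 13.1% for Ifitm2, 0.662% for Ifitm3 and 0.906% for Ifitm1. Between the genes of the cluster, 5.48% of the 36-base stretches of Ifitm2 occur in Ifitm3, and 4.14% of those of Ifitm1 occur in Ifitm3. Ifitm5 and Ifitm6 shared 0 stretches of 36 bases with another gene. A predicted transcript, Gm45717, that joins Ifitm5 and Ifitm2 exons was not counted as another gene. The read length and the treatment of reads with several matches are not given in the sources used here, so the values of the Ifitm2 and Ifitm3 locus and of Ifitm1 are uncertain to that extent, and the part of shared reads in their changes was not tested.

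**Figure D4:**
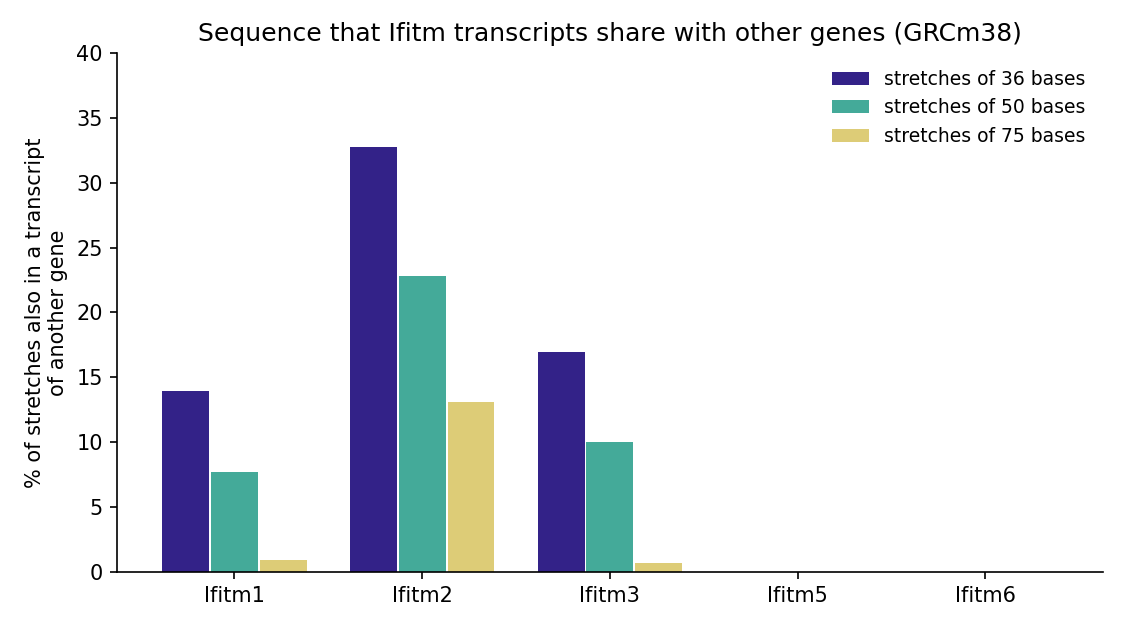
Share of all stretches of 36, 50 or 75 bases in 1 reference transcript of each Ifitm gene that also occur in a transcript of another gene. Ifitm2 has the highest bars, from 32.7% at 36 bases to 13.1% at 75 bases, and Ifitm5 and Ifitm6 have none. The predicted transcript Gm45717, which shares stretches with Ifitm5 and Ifitm2, is not counted as another gene.

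The number of reads behind an FPKM value is unknown. The relative depth was estimated at 14 locus lengths, from loci without a gene entry listed at 0 in 1 library. A deposited p equal to the normal tail beyond the square root of 1 to 4 was taken to mean that number of reads. This reading is an assumption, as no read counts were available to check it. By it, the depth of the pretreated cells' library was 0.492 times that of the naive one. If so, the low values of Ifitm5, Ifitm6 and Pgghg rest on fewer reads per FPKM in pretreated cells. The cell type label could not be checked from markers. Of 38980 transcript IDs, 0 were found in the name tables, and matching by equal length and spacing reached few genes. It found 1 of 8 fibroblast markers, Thy1, at 0.144 FPKM in naive and 0.293 FPKM in the other library, and 1 of 7 leukocyte markers, Cd68, at 0.788 and 1.09 FPKM. Thy1 was thus below 1 FPKM and below Cd68 in both libraries, so the markers reached do not bear out the fibroblast label. Of 13 interferon-induced antiviral genes the matching found 1, Isg15, at 4.49 and 112 FPKM. For interferon signalling genes, relatives and partners of Ifitm proteins, and germ cell, bone, osteoblast, epithelial and endothelial genes it found 0. Irf7 of the signalling list and Ifitm5 of the bone list were read above from their position instead.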

How the data were processed

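RNA of MEFs was sequenced on an Illumina platform, and 1 table with 2 of the 4 libraries was analysed. The sample descriptions in the labels read scTSS-seq and the series title RNA-seq; the values were treated as RNA-seq. Per the submitters' processing notes, TopHat and Cufflinks 1.2.1 were used with mm9; the annotation, the filters and the strand setting are not given in the sources used here. Per the file headers, the authors deposited FPKM values, p-values, q-values and calls for each locus. The calls were used as deposited, and their cutoff was taken here to be q below 0.05. Their fold change and test statistic columns were not used.

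Here, the change was log2(FPKM + 1) in pretreated minus naive cells, which understates changes of low loci. The 24 loci of status FAIL or HIDATA were left out, a mean of at least 1 FPKM was required, and changes past 2-fold were counted. Deposited starts were raised by 1: with raised starts 1645 loci matched annotated lengths and spacing, against 133 without. Named loci are the members, the 3 nearest on each side and the 3 most alike; others are marked. The members, the region and the lists were chosen with earlier results of these data known. Counting code was tested on simulated data. Python 3.11.15, pandas 2.3.3 and scipy 1.17.1 were used. Alternatives were 2 other pseudocounts, 2 other filters, centring, loci with a gene entry and a 4-fold threshold.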

Additional observations from a re-analysis of the deposited data

How the results depend on the processing

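No paired analysis was possible because there is a single library in each group, and none could be left out. Of the 5 loci, 1 was at least 2-fold higher in the main comparison and under every alternative except centring on the median, which gave 2, and a 4-fold threshold, which gave 0. The count of lower loci of the region was 0 under every alternative. The median change of 0.27 became 0.39 with a pseudocount of 0.1, 0.11 with a pseudocount of 5, 0.40 with centring and 1.28 with a minimum mean of 5 FPKM, which kept 2 loci. The change at XLOC_025315 lay between 1.68 and 1.82, and no locus of the region changed direction under another pseudocount or centring. With a pseudocount of 0.1, XLOC_025316 changed by -0.87 against -0.60. Over all loci, 289 were higher and 728 lower; the counts were 465 and 1175 with a pseudocount of 0.1, 145 and 318 with a pseudocount of 5, 176 and 452 with a minimum of 5 FPKM, and 99 and 143 at 4-fold. Loci with a gene entry alone gave 222 higher and 391 lower. Centring gave 404 higher and 553 lower and moved the lower share of changed loci from 71.6% to 57.8%. The cause was not tested, apart from the fewer loci that stricter settings keep. Culture-to-culture variation and pretreatment cannot be told apart here.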
